A study of Homo sapiens with 18 samples.

Results

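Integrins are the receptors that tie cells to the surrounding matrix and to other cells. Each receptor is a dimer of an alpha and a beta chain, both single-pass transmembrane proteins that enter the ER during synthesis, fold and pair there, and leave for the cell surface. The 10 genes described here encode 6 alpha chains (ITGA2, ITGA3, ITGA5, ITGA6, ITGA7 and ITGAV) and 4 beta chains (ITGB1, ITGB3, ITGB5 and ITGB8). They were taken by symbol from the 25435 rows of a table of raw gene counts, with a floor of 10 counts in 3 or more libraries. All 10 of 10 passed, and each reached 10 counts in all 18 libraries. ITGB3 was the sparsest, at 13 to 74 counts per library, and ITGB1 the most abundant, at 673 to 8501.

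The libraries came from HEK293doxERN2 cells, a derivative of the human embryonic kidney line HEK293 in which doxycycline turns on a FLAG-tagged ERN2 transgene. ERN2 (IRE1 beta) is an ER transmembrane protein with a kinase and an endonuclease domain that cuts XBP1 mRNA and can degrade other mRNAs at the ER, and its natural site is the mucus-making epithelium. In the groups called no, low and high ERN2 the cells had 0, 10 or 100 ng/mL doxycycline over 24 hours. Within each, the control libraries came from cells given DMSO as vehicle and the stress libraries from cells given 200 nM thapsigargin, a blocker of the ER calcium pump that provokes ER stress, for 3 hours, with 3 libraries in each of the 6 groups. All groups carry the transgene, and every group with more ERN2 also had more doxycycline, so effects of the drug and of ERN2 cannot be told apart. Whether the line is 1 clone, and whether the 3 libraries of a group came from separate cultures, is not given in the sources used here, so p-values measure only the spread between these libraries.

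Library totals were 14876416 to 24652240 counts on genes, and no replicate pair was alike within sampling noise. ERN2 itself was at 7.79 ± 1.27, 35.2 ± 18.1 and 270.0 ± 34.1 CPM (counts set against library size with TMM scaling, SD, n = 3) at 0, 10 and 100 ng/mL in control cells. Under stress it was at 12.2 ± 1.92, 65.8 ± 41.0 and 207 ± 56.0 CPM. Of the HEK293 markers KRT8, KRT18, VIM, CDH2, NEFM and NEFL, each was at 16.4 CPM or more in every library, with PAX2 lower at 1.197 to 4.35 CPM. The label's extraction text speaks of colon crypt cells, but MUC2, VIL1, CDH17, KRT20 and FABP1, which define that epithelium, were at no more than 0.243 CPM in any library. CDX2 and LGR5 of the same list were present at 3.36 to 8.83 and 8.53 to 35.5 CPM, and markers of blood and endothelium did not exceed 0.43422 CPM in sum. The 3 high ERN2 stress libraries were the least alike within their group, with mean correlations of 0.977 to 0.981 against 0.984 to 0.991 elsewhere, and replicate 2 of them was the shallowest of all, so the counts of called genes in its comparisons are given with and without its libraries.

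ITGB1, ITGB5 and ITGB8 mark the ends of the response to ERN2 reported below, the first pair with the deepest falls and ITGB8 with none that passed. ITGB1 lies on chromosome 10 (32900319 to 33005792, minus strand, 16 exons in the transcript used), ITGB5 on chromosome 3 (124761948 to 124901418, minus strand, 15 exons) and ITGB8 on chromosome 7 (20330702 to 20415754, plus strand, 14 exons), in the GENCODE 29 annotation of GRCh38, the build the labels name as hg38. The hexamer CTGCAG (in DNA letters) stands in the hairpin loop that IRE1 endonucleases cut at the downstream XBP1 splice site and in loops of mRNAs that they degrade, and its matches in the coding sequences of these 3 genes are shown with 12 bases on each side. The capitals mark the hexamer, which reads the same on both strands. The number is the coding position of the first base of the hexamer, counted from the A of the start codon.
ITGB1, 1545: catggatgcttaCTGCAGgaaagaaaacag
ITGB1, 1572: cagttcagaaatCTGCAGtaacaatggaga
ITGB5, 302: agggttcgggctCTGCAGgctgggacgtca
ITGB5, 1392: ctgcacgtgcggCTGCAGcgtggggctgga
ITGB5, 1581: cgggcgtggggaCTGCAGctgcaaccagtg
ITGB5, 1803: agatggccagatCTGCAGcgagcgtgggca
ITGB8, 1398: tatacacagaaaCTGCAGctgtcagtgtga
A match of these letters is a description and not a cut site. Of 12756 tested genes with a coding sequence, 70.4% hold the hexamer, at a median of 0.858 per kb. ITGB1 has 0.835 per kb, ITGB5 has 1.67 and ITGB8 has 0.433. Each of the other 7 genes holds it too. Of these, ITGA6, ITGA3 and ITGAV, which passed at high ERN2 in control cells, have 0.621, 0.634 and 0.636 per kb, below the median of all genes. ITGA7, ITGB3, ITGA2 and ITGA5, which did not pass there, have 0.293, 0.423, 1.13 and 2.54 per kb. A link between the hexamer and the falls was not tested.

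Levels can be set side by side between genes only per transcript length, so CPM were divided by the length of the transcript in kb. Without ERN2 and without stress, the partner shared by most integrin dimers, ITGB1, led with 105 ± 14.6 CPM per kb (SD, n = 3). ITGAV, which pairs with all 4 of the beta chains counted here, followed at 26.4 ± 2.30 CPM per kb. ITGA6 (13.3 ± 2.46), a laminin-binding chain, and ITGB5 (12.2 ± 0.431), a partner of ITGAV, overlapped in their libraries. The fibronectin-binding ITGA5 (10.6 ± 0.453) and the laminin-binding ITGA7 (9.67 ± 1.05) overlapped as well. The lower end was made of ITGA3 (5.84 ± 0.888), ITGB8 (4.16 ± 0.651), ITGA2 (3.18 ± 0.537) and ITGB3 (0.732 ± 0.169), of which only ITGB8 and ITGA2 overlapped as neighbours.

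That order changed at 100 ng/mL doxycycline. ITGB1 was then at 15.0 ± 3.08 CPM per kb and overlapped with ITGAV at 13.8 ± 1.39. ITGB5 went from the fourth place to the ninth, at 1.80 ± 0.173 CPM per kb, where its libraries overlapped those of ITGA2 in the eighth. ITGB8 went from the eighth to the sixth, at 3.48 ± 0.364, where it overlapped with both neighbours, ITGA6 and ITGA3. Under stress the same pattern was seen, with ITGB1 at 72.1 ± 9.59 CPM per kb without ERN2 and 13.1 ± 3.82 at the high dose, where it again overlapped with ITGAV (10.2 ± 1.84).

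**Figure D1:**
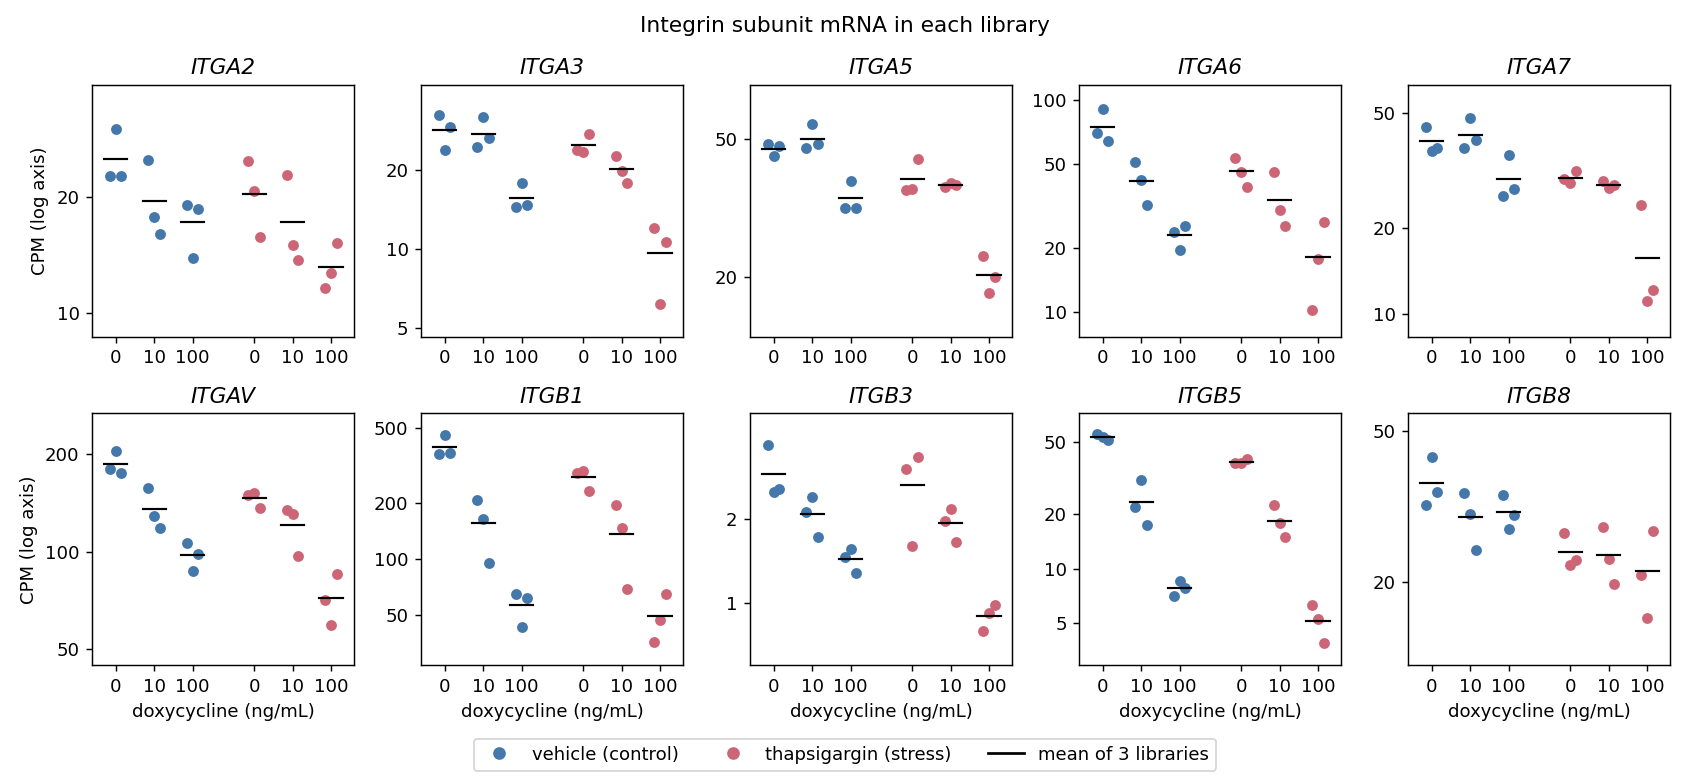
Each panel plots the CPM of 1 integrin gene (log axis, range set per panel) against doxycycline in ng/mL, with 1 point per library, blue for vehicle, red for thapsigargin, and a bar for the mean of 3. The points of ITGB1 and ITGB5 step down from 0 to 10 to 100 ng/mL, ITGA3, ITGA5 and ITGA7 lie lower at 100 ng/mL, and those of ITGB8 overlap across doses.

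The comparison of high with no ERN2 in control cells asks what the highest dose does to these genes without added stress. All 10 had a log2 fold change below 0, with a median of -0.94 against -0.0068 over all genes tested. At an adjusted p of 0.01, 5 of the 10 were lower (ITGB1, ITGB5, ITGA6, ITGAV and ITGA3) and 0 were higher, where 7.49% of 14444 tested genes were lower and 0.838% higher (1082 and 121, or 1643 and 491 with the GC and length trend of each library removed). For 9 of 10, all induced libraries lay below all uninduced ones, as they did for 16.1% of genes tested. ITGB1, ITGB5, ITGA6 and ITGAV passed in all 12 alternative fits. In bulk libraries of this kind, fewer cells with an mRNA and less of it per cell cannot be told apart.

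ITGB1, the beta chain of the collagen, laminin and fibronectin receptors, had one of the deepest falls, with ITGB5. It was at 362, 461 and 369 CPM in the 3 uninduced libraries and at 65.2, 43.5 and 61.6 CPM in those at 100 ng/mL. The groups were far apart, and the fall was to 0.138 of the uninduced level (log2 fold change -2.85 ± 0.16 SE, adjusted p = 2.27e-07). ITGB5, a vitronectin receptor chain with ITGAV, was at 55.3, 53.5 and 51.5 CPM without and at 7.09, 8.61 and 7.87 CPM with the high dose. Its libraries varied little within each group, and it fell to 0.143 of the uninduced level (-2.80 ± 0.13, adjusted p = 1.06e-07).

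Of the alpha chains, ITGA6, which pairs with ITGB1 or ITGB4 to bind laminin, was at 70.0, 90.3 and 63.9 CPM against 23.7, 19.6 and 25.5 CPM. It fell to 0.298 of its level (-1.75 ± 0.15, adjusted p = 6.93e-06), with no overlap. ITGAV, on chromosome 2 (186590065 to 186680901, plus strand), was at 179, 204 and 174 CPM against 107, 87.1 and 98.3 CPM. It fell to 0.508 (-0.98 ± 0.11, adjusted p = 5.95e-05), again without overlap. ITGA3, a laminin receptor chain of epithelia, was at 32.6, 23.9 and 29.1 CPM against 14.4, 17.9 and 14.8 CPM. It fell to 0.536 (-0.90 ± 0.15, adjusted p = 0.0014), and the lowest uninduced library was above the highest induced one.

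The other 5 genes did not pass. ITGB3, the beta chain of the platelet and osteoclast integrins, had -1.06 ± 0.25 on the log2 scale (adjusted p = 0.013) at only 24 to 74 counts per library. ITGA5 had -0.52 ± 0.12 (adjusted p = 0.013), the collagen-binding ITGA2 had -0.59 ± 0.16 (adjusted p = 0.029) and ITGA7 had -0.47 ± 0.15 (adjusted p = 0.058). Their libraries did not overlap between the groups. ITGB8, which with ITGAV activates latent TGF-beta, was at 31.9, 42.8 and 34.5 CPM without and at 33.9, 27.6 and 30.0 CPM with the high dose. These ranges overlapped, the only such case of the 10, and its difference was -0.30 ± 0.14 (adjusted p = 0.18). Removing the trend of each library on GC content and length called 8 of 10 lower (12.2% of all genes), and adding genes with low counts also 8 (6.81%).

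High ERN2 under thapsigargin was compared in the same way with its own uninduced libraries. ERN2 itself rose 17.0-fold here, against 33.6-fold in control cells. All 10 log2 fold changes were below 0, with a median of -1.19 against 0.044 over all genes. In this comparison 7 were lower and 0 higher, beside 9% of 14358 genes tested that were lower and 1.53% higher (1292 and 220, or 1760 and 902 with the GC and length trend removed). For 9 of 10 the induced libraries all lay below the others, against 20.4% of genes. Without replicate 1, 2 or 3 of the induced group these were 9, 9 and 10 genes against 30.1%, 21.6% and 23.8%. ITGB5, at 38.2, 38.6 and 40.2 CPM without ERN2, was at 6.35, 5.28 and 3.92 CPM with it. That was a fall to 0.133 (-2.91 ± 0.21, adjusted p = 2.66e-06). ITGB1 went from 290.0, 297 and 231 CPM to 36.1, 47.4 and 64.8 CPM. The lowest stressed library without ERN2 was several times above the highest with it, and the fall was to 0.180 (-2.47 ± 0.21, adjusted p = 8.59e-06).

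ITGAV (-1.02 ± 0.15, adjusted p = 0.00052), ITGA3 (-1.37 ± 0.22, adjusted p = 0.00086) and ITGA6 (-1.35 ± 0.28, adjusted p = 0.0044) fell in the stressed cells too. ITGA5 was at 35.6, 36.0 and 43.9 CPM against 23.0, 18.0 and 19.99 CPM and fell to 0.528 (-0.92 ± 0.16, adjusted p = 0.0016). ITGB3, at 1.60 to 3.36 CPM against 0.794 to 0.981, fell by 1.56 ± 0.37 on the log2 scale (adjusted p = 0.0097). ITGA7 (-0.92 ± 0.25, adjusted p = 0.022) and ITGA2 (-0.64 ± 0.21, adjusted p = 0.046) did not pass. ITGB8 was at 26.9, 22.2 and 22.8 CPM against 20.8, 16.1 and 27.3 CPM. Its groups overlapped, with the highest of the 6 values in an induced library, and its difference was -0.17 ± 0.20 (adjusted p = 0.57). Without replicate 1, 2 or 3 of the high ERN2 stress group, 8, 4 and 6 genes passed, while 13.7%, 5.03% and 8.14% of all genes tested were lower and 13.5%, 0.206% and 0.804% higher. ITGB1, ITGB5, ITGAV and ITGA3 passed in each of these and in all 12 alternative fits, while without replicate 2 the calls of ITGA5 (adjusted p = 0.019), ITGA6 (0.031) and ITGB3 (0.030) were lost. ITGA6 was also lost without replicate 1 (adjusted p = 0.023) or 2 (0.012) of the no ERN2 stress group, and ITGB3 without replicate 1 (0.056) or 3 (0.051) of it or replicate 3 of the induced group (0.020).

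**Figure D2:**
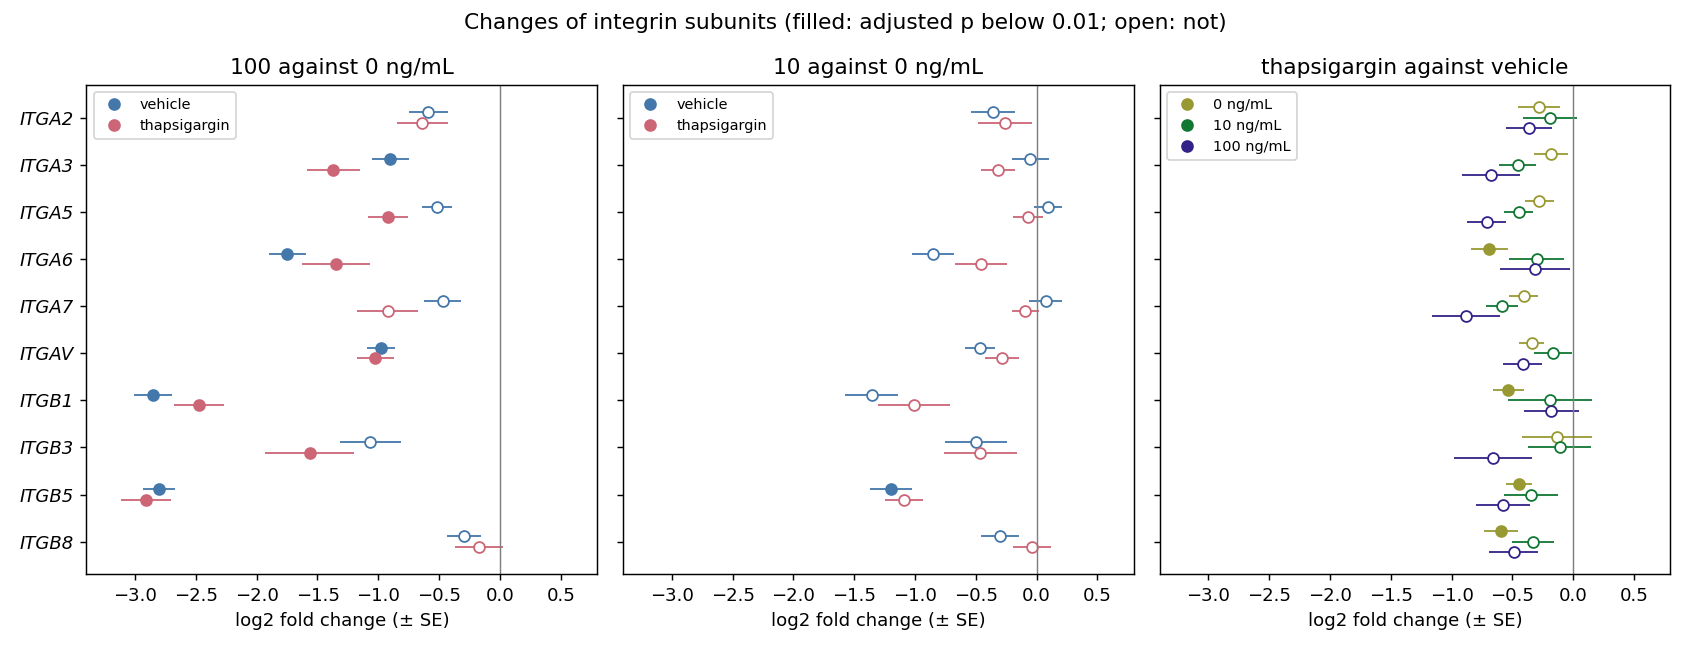
The 3 panels plot the log2 fold change with its SE for each integrin gene, for 100 against 0 ng/mL, 10 against 0 ng/mL and thapsigargin against vehicle, with filled points for an adjusted p below 0.01. In the left panel ITGB1 and ITGB5 lie between -2.91 and -2.47 in both treatments and ITGB8 lies within 0.30 of 0.

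A dose of 10 ng/mL asks the same question at a lower ERN2 level. In control cells 1 of 10 genes, ITGB5, passed, beside 0.0552% of 14497 genes tested that were lower and 0.138% higher, and the median of the 10 was -0.41 against 0.0024 over all genes. For 5 of 10 the libraries at this dose all lay below the uninduced ones, against 15.3% of genes. ITGB5 was at 21.98, 30.8 and 17.5 CPM at this dose. All 3 values lay below the uninduced ones and above those at 100 ng/mL, and the fall was to 0.437 (-1.2 ± 0.17, adjusted p = 0.0085). ITGB1 was at 208, 164 and 94.7 CPM at 10 ng/mL. It also lay between the outer doses without overlap but varied more, and its -1.36 ± 0.22 had an adjusted p of 0.014. ITGA6 was at 50.7, 41.7 and 31.9 CPM (-0.85 ± 0.17, adjusted p = 0.045). ITGA3 (-0.052 ± 0.15, adjusted p = 0.83), ITGA5 (0.093 ± 0.12, adjusted p = 0.60) and ITGA7 (0.076 ± 0.13, adjusted p = 0.72) had their uninduced and low-dose libraries interleaved.

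The ITGB5 call at 10 ng/mL did not survive the loss of any of replicates 1, 2 or 3 of the uninduced group (adjusted p = 0.063, 0.017 and 0.032) or of replicates 2 or 3 of the low-dose group (0.012 and 0.014), nor the fit with all 6 groups (0.018). ITGB1 passed without replicate 1 (adjusted p = 0.00010) or 3 (0.0093) of the low-dose group. Without that replicate 1 ITGA6 (0.00054) and ITGAV (0.0011) passed too, 4 genes in all. In that fit 10.7% of all genes were lower and 8.05% higher. Of the 12 alternative fits this was the only 1 in which ITGAV passed. Its log2 fold change ran from -0.60 to -0.077 over them, with adjusted p up to 0.57.

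Between the low and the high dose in control cells, 3 of 10 genes were lower and 0 higher, beside 2.43% of 14549 genes tested that were lower and 0.0137% higher. These were ITGB5 (-1.60, adjusted p = 0.0030), ITGB1 (-1.48, adjusted p = 0.0094) and ITGA3 (-0.84, adjusted p = 0.0090). For ITGA3 nearly the whole difference in CPM lay in this step, since its mean was 28.5 CPM at 0, 27.6 at 10 and 15.7 at 100 ng/mL. That split depended on the fit. Over the 12 alternative fits ITGA3 had -0.28 to 0.054 from 0 to 10 ng/mL and -0.93 to -0.67 from 10 to 100 ng/mL. From 10 to 100 ng/mL ITGB8 had 0.014 (adjusted p = 0.98). None of the 3 calls remained without replicate 2 of the low-dose group, replicate 1 of the high-dose group or replicate 3 of the high-dose group, where 0.0611%, 0.136% and 0% of all genes were lower. ITGA3 was also lost without replicate 3 of the low-dose group (adjusted p = 0.015) or with RLE size factors (0.011), and ITGB1 without replicate 2 of the high-dose group (0.013).

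In stressed cells 0 of 10 genes passed edgeR's test between the low dose and none, where it called 0% of 14509 genes. DESeq2 called 1 (0.325% of all genes lower). An unadjusted p below 0.05 in edgeR's test was found for 3, a count given without the share of all genes at that level. Here same-numbered libraries deviated together, and with the replicate number as a block 4 genes were lower, ITGB5 (-1.10, adjusted p = 7.56e-07), ITGB1 (-1.11, adjusted p = 3.22e-06), ITGA6 (-0.48, adjusted p = 0.00090) and ITGAV (-0.29, adjusted p = 0.0060). With that block 2.53% of all genes were lower and 1.36% higher. ITGB5 was at 22.5, 17.9 and 14.9 CPM in replicates 1 to 3 of the low-dose group, and ITGB1 at 194, 146 and 69.3 CPM. Both lay below all stressed libraries without ERN2, as 4 of the 10 genes and 5.4% of all did. With the GC and length trend removed as well as the block, ITGB5, ITGB1 and ITGA6 remained and ITGAV had an adjusted p of 0.086, with 1.72% of all genes lower.

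From the low to the high dose under stress, 3 genes were lower, ITGB5 (-1.83, adjusted p = 0.00066), ITGA5 (-0.86, adjusted p = 0.0052) and ITGB1 (-1.46, adjusted p = 0.0087), beside 5.32% of 14493 genes tested that were lower and 0.235% higher. ITGA5 thus had its difference between 10 and 100 ng/mL, at means of 38.5, 36.9 and 20.3 CPM over the doses. The count was 0 without replicate 2 of the high ERN2 stress group, 4 without its replicate 1 (ITGB1 lost, adjusted p = 0.011), 2 without its replicate 3 (ITGA5 lost, 0.017), and 1 without replicate 1 or replicate 2 of the low ERN2 stress group. The share of all genes that were lower was 0.285%, 8.9%, 3.6%, 1.48% and 0.975% in these fits. Without replicate 3 of the low ERN2 stress group ITGA5 was lost (adjusted p = 0.013) and ITGAV passed (0.0085), and with RLE size factors ITGB1 was lost (0.011).

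Thapsigargin alone, in cells without doxycycline, lowered 4 of 10 genes, beside 4.74% of 14397 genes tested that were lower, and raised 0, where 6.45% of all were higher. All 10 were below 0, with a median of -0.37 against -0.0066. ITGA6 was at 53.2, 45.7 and 38.9 CPM under stress, below its 3 control libraries (-0.69 ± 0.15, adjusted p = 0.0060). ITGB8 (-0.59 ± 0.14, adjusted p = 0.0092), ITGB1 (-0.53 ± 0.13, adjusted p = 0.0098) and ITGB5 (-0.45 ± 0.11, adjusted p = 0.0098) fell as well. ITGB8, which did not pass at either dose of doxycycline, thus passed here. These calls were close to the threshold. At most 2 of the 4 remained when any of the 6 libraries was left out, 0 without replicate 1 or 2 of the control group or replicate 2 of the stress group, 1 without replicate 3 of the control group or replicate 1 of the stress group and 2 without replicate 3 of the stress group. In these fits 2.03% to 5.54% of all genes were lower. The fit with all 6 groups called 0 (3.39% of all genes lower), and ITGB5 did not pass without the filter on low counts (adjusted p = 0.0101).

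With ERN2 induced, 0 of 10 genes passed edgeR's test of thapsigargin, at 10 ng/mL (0.294% of 14607 genes lower and 1.16% higher) or at 100 ng/mL (0.0208% of 14427 lower and 0.18% higher). DESeq2 called 2 and 1, beside 2.94% and 3.61% of all genes lower. At an unadjusted p of 0.05 there were 3 and 6. The share of all genes at that unadjusted level is not given here, so these counts have no background to be read against. All 10 values were below 0 at both doses. At the high dose ITGA7 had -0.88 ± 0.28 (adjusted p = 0.097), ITGA5 -0.71 ± 0.16 (0.045) and ITGA3 -0.67 ± 0.24 (0.12). Without replicate 1 of the high ERN2 stress group these 3 passed, with adjusted p of 0.00023, 0.0018 and 0.0061, but that fit called 7.84% of all genes lower and 9.78% higher. Without replicate 2 or 3 of that group 0 genes passed.

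Whether the response to thapsigargin differed with ERN2 was tested as an interaction in fits of 12 libraries. At the high dose 0 of 10 genes passed with edgeR or DESeq2 and 0 had an unadjusted p below 0.05, beside 0.0406% of 14768 genes called by edgeR and 2.88% by DESeq2. The values were 0.46 ± 0.37 for ITGA6 (adjusted p = 0.45), 0.43 ± 0.29 for ITGB1 (0.36) and -0.35 ± 0.18 for ITGA5 (0.24). ERN2 itself had -0.93 ± 0.26 (0.081) and did not pass either. Its rise at the high dose was 33.6-fold without and 17.0-fold with stress in these libraries. The low dose gave 0 of 10 by both tools and 0 at an unadjusted p of 0.05, beside 0% of 14857 genes. Leaving out replicate 1 of the high ERN2 stress group was the only fit with a call, ITGA7 at -0.88 (adjusted p = 0.0096, against -0.39 ± 0.32 and 0.46 with all libraries), and it called 8.6% of all genes.

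The unequal falls changed the make-up of the beta chains. Of the summed CPM per kb of the 4 beta genes, ITGB1 held 84.8%, 87.3% and 85.6% in the uninduced control libraries and 74.6%, 67.6% and 74.6% at 100 ng/mL. ITGB8 held 3.40% ± 0.152 (SD, n = 3) at 0, 7.02% ± 1.40 at 10 and 17.0% ± 1.45 at 100 ng/mL. Its share was thus higher at each dose without overlap, while its level per kb overlapped between the doses. Under stress the ITGB8 share was 3.27% ± 0.398, 6.76% ± 2.16 and 14.6% ± 2.95, without overlap between the doses. ITGB5, which fell in step with ITGB1, held 10.1% ± 1.24 and 8.95% ± 2.36 at the outer doses in control cells, within overlapping ranges.

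**Figure D3:**
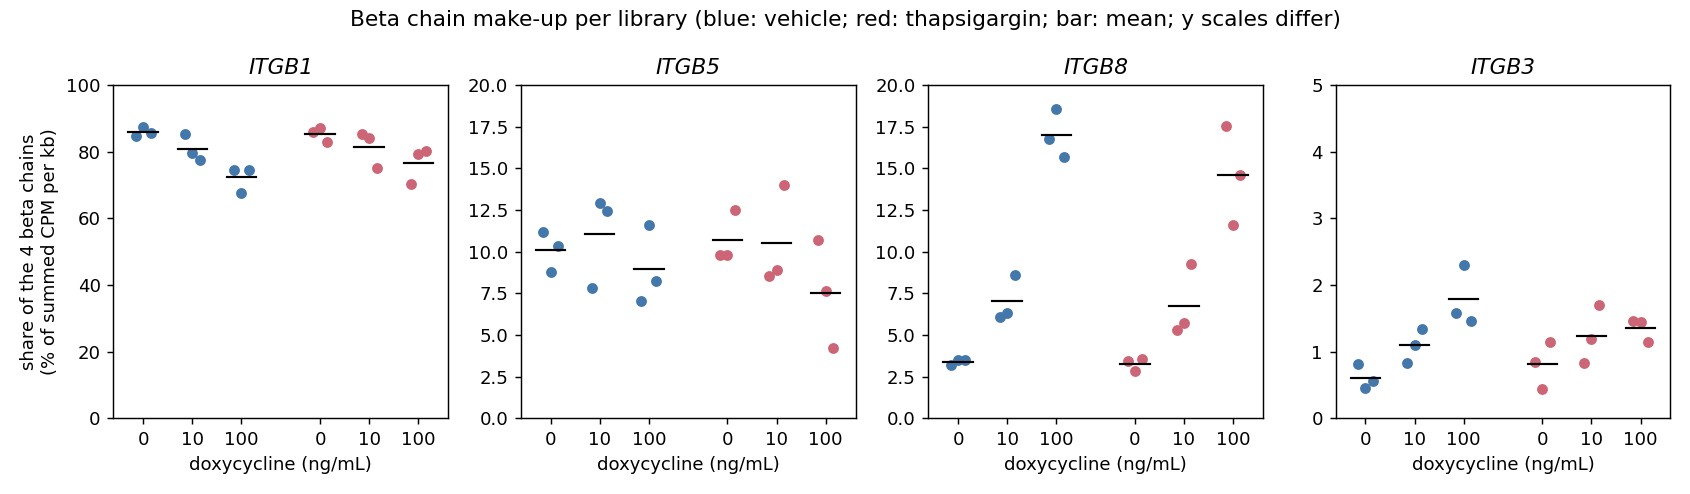
Each panel plots the percent of the summed CPM per kb of the 4 beta chains held by 1 of them, against doxycycline in ng/mL, with 1 point per library (blue for vehicle, red for thapsigargin), a bar for the mean of 3 and a y scale of its own. The share of ITGB8 goes from 3.40% to 17.0% in vehicle while that of ITGB1 goes from 85.9% to 72.3%.

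Summed over these 10 genes, beta chain mRNA also fell more than alpha chain mRNA. The sums leave out other expressed chains, among them ITGA1 and ITGB4. ITGB1 alone made up 85.9% of the beta sum in control cells without ERN2. The 6 alpha genes summed to 69.0 ± 3.99 CPM per kb without ERN2, 56.2 ± 4.84 at 10 and 38.1 ± 0.424 at 100 ng/mL in control cells. The 4 beta genes summed to 122 ± 15.2, 50.4 ± 16.5 and 20.6 ± 3.22. The ratio of beta to alpha was 1.63, 1.92 and 1.75 in the uninduced libraries, 1.08, 0.929 and 0.636 at 10 ng/mL, and 0.605, 0.442 and 0.580 at 100 ng/mL. Among these 10 genes, beta mRNA was thus in excess in every uninduced library and the lesser part in every library at the high dose. The 3 doses did not overlap. Under stress the ratio was 1.61 ± 0.155, 0.949 ± 0.293 and 0.666 ± 0.139, and there the low dose, with 0.627 in replicate 3, overlapped with the high dose at 0.506, 0.743 and 0.751. No test was run on these shares and ratios, which are given as descriptions.

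Among the alpha genes ITGAV kept the largest share, at 38.3% ± 1.56 without ERN2 and 36.3% ± 3.82 at 100 ng/mL in control cells. ITGA6 went from 19.2% ± 2.50 to 10.7% ± 1.51, and ITGA5 from 15.4% ± 1.41 to 19.9% ± 1.88.

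Over the 18 libraries the log2 CPM of some chains were closely correlated. ITGA3, ITGA5 and ITGA7 correlated at 0.908 to 0.950 with each other, and ITGA6, ITGAV and ITGB1 at 0.940 to 0.951. Between these sets the correlations ran from 0.541 for ITGA7 with ITGB1 to 0.863 for ITGA3 with ITGAV. ITGB8 correlated at 0.403 with ITGB5. The first set has 58.7% to 60.9% GC in its transcripts and the second 38.3% to 42.9%. The correlation of expression with GC content in each library, relative to the others, ran from -0.633 to 0.595 and was not the same within groups, and its part in these correlations was not tested. The points share libraries, groups and base composition, so the values are descriptive.

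The genes closest to each of the 5 that passed at the high dose in control cells were found among 15023 genes by the same correlation over 18 libraries. RCN2 (0.994), GPR126 (0.989) and NDC1 (0.987) were the closest to ITGB1. For ITGB5 these were GALNT10 (0.991), APMAP (0.987) and FURIN (0.987), and for ITGA6 they were DPY19L1 (0.992), LMBR1 (0.989) and ZDHHC20 (0.983). ITGAV had SNX25 (0.987), SLC9A7 (0.986) and COCH (0.986), and ITGA3 had SLC25A1 (0.987), AGPAT2 (0.983) and COL6A2 (0.983). No gene stood among the closest 3 of more than 1 integrin.

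The other genes of the integrin system were read from lists of chains, ligands, membrane partners and cytosolic adaptors. Of the 16 other integrin chains, 10 were expressed well enough to test at the high dose in control cells. Of these, 4 were lower and 0 higher, beside 7.49% and 0.838% of all genes tested. ITGA1, a collagen-binding partner of ITGB1, was at 43.8 to 60.1 CPM without and 9.39 to 14.2 with the high dose (-2.05, adjusted p = 6.71e-06). ITGA8 (-1.98, adjusted p = 0.00019), ITGB4, the laminin-binding partner of ITGA6 (-1.62, adjusted p = 0.0020), and ITGA4 (-0.97, adjusted p = 0.0016) fell too. ITGAE (-0.098, adjusted p = 0.64), ITGA2B (0.098, 0.79) and ITGAX (-0.10, 0.86), chains of leukocytes and platelets at no more than 22.7 CPM here, had overlapping libraries. ITGA9 (-0.68, adjusted p = 0.048), ITGA11 (-0.82, 0.12) and ITGA10 (1.0, 0.12) did not pass either, ITGAM reached 10 counts in 4 libraries but was not tested, and 5 chains did not reach the floor.

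Most extracellular ligands of integrins were lower too. Of 27 tested, 19 were lower and 0 higher at the high dose in control cells, with a median of -1.11. Of all genes tested there, 7.49% were lower and 0.838% higher. COL4A1, a chain of basement membrane collagen, went from 343 ± 26.6 to 46.6 ± 4.6 CPM (-2.92, adjusted p = 6.52e-08). LAMC1, the gamma chain of most laminins, went from 496 ± 15.4 to 99.9 ± 5.43 CPM (-2.35, adjusted p = 6.52e-08), and fibronectin, FN1, from 2146 ± 181 to 551 ± 13.9 CPM (-2.0, adjusted p = 1.67e-07). Under stress 18 of 27 ligands were lower and 0 higher, beside 9% and 1.53% of all genes. When replicate 1, 2 or 3 of the high ERN2 stress group was left out, 19, 15 and 18 were lower. In these fits 13.7%, 5.03% and 8.14% of all genes were lower.

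Membrane proteins that sit beside integrins were mixed. Of 14 tested at the high dose in control cells, 8 were lower and 1 higher, beside 7.49% and 0.838% of all genes, with a median of -0.68. The tetraspanins CD81 (-1.08, adjusted p = 0.00011) and TSPAN4 (-1.17, adjusted p = 0.00014) and basigin, BSG (-0.88, adjusted p = 0.00039), fell. The gene that rose was SLC3A2, the heavy chain of amino acid transporters (0.87, adjusted p = 0.0019). It rose with thapsigargin alone as well (1.68, adjusted p = 2.11e-06), and under stress it was lower with high ERN2 (-0.88, adjusted p = 0.0046), a call lost without replicate 2 (0.035) or 3 (0.016) of the high ERN2 stress group.

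The adaptors that link integrin tails to actin are made in the cytosol. Of 27 tested at the high dose in control cells, 1 was lower and 0 higher, beside 7.49% and 0.838% of all genes. Their median was 0.065 against -0.0068 over all genes. The 1 that fell was the actin crosslinker FLNA, from 3633 ± 210.2 to 1795 ± 249.7 CPM (-1.06, adjusted p = 5.0e-05). SHARPIN, an inhibitor of integrin activation (0.50, adjusted p = 0.056), and PARVB, a partner of integrin-linked kinase (0.38, adjusted p = 0.13), came next by p and did not pass. Under stress the count was again 1 lower of 27, beside 9% of all genes, with a median of 0.074 beside 0.044 over all genes. Without replicate 1 of the high ERN2 stress group 2 of the adaptors were higher, where 13.5% of all genes tested were higher.

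**Figure D4:**
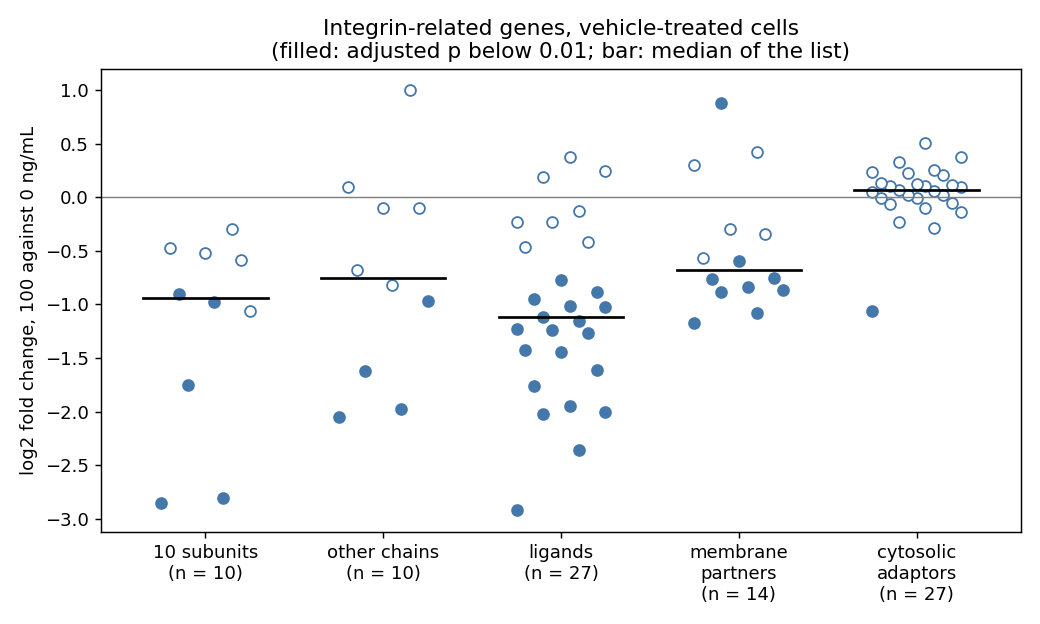
The plot gives the log2 fold change of each tested gene at 100 against 0 ng/mL doxycycline in vehicle-treated cells, by list, with filled points for an adjusted p below 0.01 and a bar for the median. The 10 subunits, other chains, ligands and membrane partners have medians of -0.94, -0.75, -1.11 and -0.68, and the adaptors one of 0.065.

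For 9 of the 10 genes the annotation has a neighbour on the opposite strand that overlaps them, ITGA3 being the exception. ITGB3 also shares 57920 bases with a gene of the same strand, AC068234.1, so its counts are uncertain. ITGB5 shares 1986, 1224 and 244 bases of its span with the short same-strand annotations AC022336.3, ENO1P3 and RF00100, and ITGB8 shares 71 with RF00275. Whether the counting used strand is not given in the sources used here, though the library kit keeps it.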

How the data were processed

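RNA-Seq of 18 HEK293doxERN2 libraries was made by the authors with a stranded mRNA kit and single-end reads of 75 cycles. Reads were aligned with STAR, and the authors deposited the count of reads on each gene symbol, raw and with no filter. The labels name hg38; the aligner version, annotation and strand setting are not given in the sources used here. Columns were mapped to libraries by the labels.
Each comparison used only its own groups. Genes were kept by filterByExpr (minimum count 10), scaled by TMM and tested with the quasi-likelihood test of edgeR 4.0.16 in R 4.3.3, at a Benjamini-Hochberg adjusted p of 0.01 over every gene kept. SE is the log2 fold change over the square root of F. The tests were checked on simulated counts. Positions, lengths, GC content and coding sequences came from GENCODE 29 (22650 of 25433 symbols matched).
The alternatives were RLE factors, DESeq2 1.42.0, no filter, the replicate number as a block, 1 fit over all 6 groups, each library left out and, chosen after the data were seen, removal of GC and length trends (span 0.3). Replicate numbers come from the labels. Low and no ERN2 under stress was the only comparison where each same-numbered pair correlated above 0.1 in its deviations (r = 0.343 to 0.468), so the blocked values stand beside it.
The integrin genes, the lists and the naming rule were chosen with earlier results of these data known. The rule names all 10 genes, other chains at the same count floor, the 3 genes of each other list with the smallest p at high against no ERN2 in control cells, and the 3 genes most correlated with each that passed there. SLC3A2 was named after its values were seen. Precision was limited by the spread of 3 libraries.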

Additional observations from a re-analysis of the deposited data

How the results depend on the processing

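Every integrin call in a direct comparison of groups was a lower level, and the only interaction call, for ITGA7, was below 0. No gene that passed reversed. Of 1446 values of single genes under alternatives, 1229 kept their direction and side of the threshold, 65 lost and 85 gained a call, and 67 reversed, none of them called. No group level moved by more than its SD with RLE factors. The number of integrin genes that passed is given here with, in brackets, the share of all genes that were lower in the same fit. For low against no ERN2 in control cells it was 1 (0.0552%), with 3 by DESeq2 (2.31%) and 3 without the filter on low counts (2.36%). It was 0 in the fit of all 6 groups (0.00666%) and 2 without the GC and length trend (0.555%). For high against no ERN2 in control cells it was 5 (7.49%), and 8 without the filter (6.81%) or without the trend (12.2%). For high against low ERN2 in control cells it was 3 (2.43%), with 5 by DESeq2 (5.61%) and 6 without the trend (6.28%). Under stress it was 3 (5.32%), with 5 by DESeq2 (8.77%) and 5 without the filter (5.46%). There it was 7 in the fit of all groups (11.5%) and 5 without the trend (8.66%). For low against no ERN2 under stress it was 0 (0%), with 1 by DESeq2 (0.325%). For thapsigargin without ERN2 it was 4 (4.74%), with 0 in the fit of all groups (3.39%). With low ERN2 it was 0 (0.294%), with 2 by DESeq2 (2.94%). With high ERN2 it was 0 (0.0208%), with 1 by DESeq2 (3.61%), 2 in the fit of all groups (4.71%) and 5 without the trend (4.42%). The cause was not tested.
With a replicate block the counts were 3, 4 and 7 for low against no, high against no (without ITGA3, adjusted p = 0.015) and high against low ERN2 in control cells, and 4 (3 without the trend), 8 and 1 in the same order under stress. In these blocked fits 0.614%, 4.87% and 7.71% of all genes were lower in control cells. Under stress 2.53% (1.72% without the trend), 8.62% and 2.64% were lower. For thapsigargin the counts were 6, 5 and 0 at no, low and high ERN2, where 12%, 11.4% and 0% of all genes were lower. Over all groups the 45 same-numbered pairs had a mean correlation of deviations of 0.071, against -0.035 for the others. Means of 0.302, 0.262 and 0.186 stood for thapsigargin with low ERN2, high against low ERN2 in control cells and thapsigargin without ERN2, but in each the lowest pair was under 0.1 (-0.033, -0.017 and 0.083), so the numbers were not taken as pairs there.
Leaving out 1 library gave 0 to 4 genes for low against no ERN2 in control cells, 5 to 7 for high against no and 0 to 3 for high against low. In these fits 0% to 10.7%, 5.71% to 8.7% and 0% to 3.3% of all genes were lower. Under stress the ranges were 0 to 0, 4 to 8 and 0 to 4, where 0%, 5.03% to 13.7% and 0.285% to 8.9% of all genes were lower. For thapsigargin they were 0 to 2 without ERN2, 0 to 0 with low and 0 to 3 with high ERN2. There 2.03% to 5.54%, 0.0202% to 0.846% and 0% to 7.84% of all genes were lower. For the interactions they were 0 to 0 and 0 to 1, where 0% and 0.0134% to 8.6% of all genes were called.
Removing the GC and length trend turned, for low against no ERN2 in control cells, ITGA5 to -0.12, ITGA7 to -0.16 and ITGB8 to 0.11, and for high against low ITGB8 to -0.11. Under stress it turned ITGB8 to 0.076 for low against no ERN2, or 0.083 with the block. In the interaction of the low dose it turned ITGA2 to -0.13, ITGA5 to 0.020, ITGA7 to 0.025, ITGAV to -0.10 and ITGB8 to -0.032, and in that of the high dose ITGA2 to -0.39, ITGAV to -0.49, ITGB1 to -0.037, ITGB5 to 0.080 and ITGB8 to -0.34. In the last, ITGA2 and ITGAV were -0.058 and -0.053 with RLE factors, -0.060 and -0.053 with DESeq2, -0.033 and -0.028 without the filter and -0.11 and -0.10 with all groups. Over all genes, removing the trend changed the calls from 20 higher and 8 lower to 51 and 75 for low against no ERN2 in control cells, from 34 and 771 to 328 and 1170 for high against low under stress, and from 26 and 3 to 353 and 594 for thapsigargin at high ERN2.
With 1 library left out, reversals lay within these ranges. Low against no ERN2 in control cells gave -0.17 to 0.054 for ITGA3 and -0.026 to 0.17 for ITGA7, and high against low -0.35 to 0.011 for ITGA2 and -0.12 to 0.15 for ITGB8. Under stress, low against no gave -0.12 to 0.034 for ITGA5 and -0.18 to 0.084 for ITGB8, and high against low -0.35 to 0.046 for ITGB8. Thapsigargin gave -0.32 to 0.13 for ITGB3 without ERN2, and with low ERN2 -0.45 to 0.0065 for ITGA2, -0.54 to 0.12 for ITGB1 and -0.22 to 0.00023 for ITGB3. The interaction of the low dose gave -0.15 to 0.31 for ITGA2, -0.23 to 0.23 for ITGB3 and -0.068 to 0.35 for ITGB5, and that of the high dose -0.18 to 0.091 for ITGA2, -0.17 to 0.11 for ITGAV, -0.29 to 0.086 for ITGB5 and -0.065 to 0.33 for ITGB8.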

Other observations

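Within both low-dose groups the library with the most ERN2 had the least ITGB1. In control cells ERN2 was at 22.5, 27.1 and 55.9 CPM in the 3 libraries and ITGB1 at 208, 164 and 94.7 CPM in the same order. Under stress ERN2 was at 32.1, 53.9 and 112 CPM and ITGB1 at 194, 146 and 69.3 CPM. ITGA2, ITGA6, ITGAV and ITGB8 had the same order in both groups, among them ITGB8 at 34.3, 30.2 and 24.3 CPM and at 28.0, 23.0 and 19.7 CPM. ITGB5, at 21.98, 30.8 and 17.5 CPM in control cells, and ITGA3 had it under stress but not in control cells. ITGA5 did not, at 47.2, 55.2 and 48.3 CPM and at 36.5, 37.4 and 36.9 CPM. ITGA7 and ITGB3 had it in neither group. The genes with this order in both groups, ITGB1 included, were the 5 below 50% GC, at 37.8% to 42.9%. The integrin genes at 52.3% to 60.9% GC did not have it in both groups. The correlation of expression with GC content rose over these libraries in the same order as ERN2. It was 0.061, 0.570 and 0.595 in control cells and -0.172, 0.045 and 0.444 under stress. With 3 libraries per group the order of the genes was not tested, nor was the part of GC content in it.
Split at 50% GC, the 5 richer and 5 poorer integrin genes had medians of -0.90 and -0.98 at high against no ERN2 in control cells and -1.37 and -1.02 under stress. For low against no ERN2 in control cells the medians were -0.052 and -0.47.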
